A study of Mus musculus with 42 samples.

Results

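Transcript levels of 10 genes of cell cycle control and growth arrest were examined in mouse cells exposed to bisphenol S (BPS) or to its ethanol vehicle. They were the D cyclins Ccnd1, Ccnd2 and Ccnd3, the CDK inhibitors Cdkn1b, Cdkn2a and Cdkn2b, the growth arrest genes Gadd45a, Gadd45b and Gadd45g, and the polo-like kinase Plk2, 10 of the 22186 genes in the deposited table. The genes were chosen by symbol, and the choice rested in part on measured values, since several of them had been named as changed in exposed induced pluripotent stem cells (iPSCs) and in the primordial germ cell-like cells (PGCLCs) later derived from those iPSCs. The levels in that experiment, called the propagation experiment here, were therefore selected on and are given as a description with no test, whereas the other experiments were tested.

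BPS is a bisphenol A substitute used in plastics and thermal paper. RNA-seq had been run on 42 libraries in 14 groups of 3. In the dose series, iPSCs received vehicle or 1, 50 or 100 µM BPS for 24 h and recovered in clean medium for 24 h. Sertoli cells and granulosa cells received 1 µM BPS or vehicle on the same schedule, and PGCLCs were exposed directly to 1 µM BPS or vehicle for 24 h with a recovery of 8 h before sorting. The PGCLCs were exposed within cell aggregates in round-bottom plates, from which they were later sorted. The other cell types were exposed in sealed flasks with gassed medium. In the propagation experiment, iPSCs received 1 µM BPS or vehicle and PGCLCs were derived from the exposed and the vehicle iPSCs without further exposure.

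All iPSCs and PGCLCs came from 1 male iPSC line, reprogrammed from fibroblasts of 1 fetus carrying the doxycycline-driven tetO-4F2A cassette, so they represent 1 genotype. The PGCLCs had been sorted for FUT4 and ITGB3. The Sertoli and granulosa cells were primary cultures from pooled littermate males and females at postnatal day 20, divided among flasks. The replicates were thus flasks or batches rather than separate animals, and every p-value below measures the spread between such samples only. Each cell type also had its own medium, so medium and cell type cannot be told apart. The iPSC libraries of the dose series were titled as preliminary and those of the Sertoli cells, granulosa cells and direct PGCLCs were not. In comparisons of those cells with these iPSCs, experiment and cell type therefore cannot be told apart either.

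D cyclins bind CDK4 and CDK6 and start the phosphorylation of the retinoblastoma protein, which frees E2F factors to drive entry into S phase. The INK4 proteins p16 and p15, from Cdkn2a and Cdkn2b, block CDK4 and CDK6, and p27, from Cdkn1b, blocks cyclin E bound to CDK2 and also assembles with D cyclins. Cdkn2a encodes p19ARF as well, which restrains MDM2 and so stabilises p53. GADD45 proteins are small stress proteins that bind PCNA, CDK1 and the kinase MAP3K4, and PLK2 is a stress-inducible kinase of the centrosome that is a p53 target. Pluripotent cells are known for a short G1 phase, and Ccnd2 is known as the cyclin on which granulosa cell proliferation depends in the mouse.

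The libraries held between 26693847 and 44524376 reads, and each of the 10 genes had at least 39 reads in every library. Levels are given as CPM, reads scaled to a common library size. Direct PGCLC vehicle replicate 1 stood apart from its group (mean chi-square per gene of at least 38.2 to either partner, against 2.02 between the partners), and its share of reads from 28 ribosomal RNA genes was 1.03%. In the propagation experiment, BPS-exposed iPSC replicate 2 stood apart in the same way (at least 55.7 to either partner, against 5.94 between them). Granulosa vehicle replicate 2 was at least 17.9 from its partners, against 3.60 between those. The 3 iPSC libraries at 1 µM of the dose series were all at least 19.2 from each other, with ribosomal shares of 0.202% to 0.534%, so none of them could be named as the one apart. In the derived PGCLCs, vehicle replicate 2 was at least 13.9 and BPS replicate 3 at least 13.1 from their partners. The effect of leaving these libraries out stands beside the results they enter. The iPSC vehicle libraries of the dose series had Pou5f1 at 747 CPM and Nanog at 689 CPM on average, but Fut4, whose product was part of the PGCLC gate, at 0.02 CPM. In direct PGCLC vehicle libraries 6 PGCLC markers summed to 248 to 254 CPM, against 170 to 174 CPM in these iPSC libraries. The 7 iPSC markers still summed to 2535 to 2598 CPM in those PGCLCs, against 3985 to 4059 CPM in the iPSCs. Sertoli vehicle cultures had the Sertoli markers Sox9 at 336 CPM and Wt1 at 377 CPM, but Rhox5 at 0.38 CPM and Amh at 7.49 CPM. Granulosa vehicle cultures had Foxl2 at 140 CPM and Inha at 1300.4 CPM, but Fshr at 0.45 CPM. Genes known from stromal cells were also measured in both somatic cultures. The summed level of 5 fibroblast genes was 1100 to 1190 CPM in Sertoli vehicle cultures and 3208 to 3437 CPM in granulosa vehicle cultures, with all 5 at 1 CPM or more, and 4 smooth muscle genes summed to 1101 to 1214 CPM and 2003 to 2060 CPM in the same order. Whether these transcripts came from other cells or from the cultured Sertoli and granulosa cells themselves was not tested. In bulk samples of this kind, fewer cells of a type and less RNA per cell cannot be told apart.

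The promoters of the pair of genes that rose at both higher doses in iPSCs, Plk2 and Gadd45b, are shown because the dose series turns on them. RefSeq (GRCm38.p6) gave promoter sequence for 8 of the 10 genes, all but Ccnd1 and Ccnd2. Each sequence holds the 250 bases before the start, on the coding strand, with the letters matching a searched motif in capitals.
Plk2 (chr13:110394794-110395043, + strand): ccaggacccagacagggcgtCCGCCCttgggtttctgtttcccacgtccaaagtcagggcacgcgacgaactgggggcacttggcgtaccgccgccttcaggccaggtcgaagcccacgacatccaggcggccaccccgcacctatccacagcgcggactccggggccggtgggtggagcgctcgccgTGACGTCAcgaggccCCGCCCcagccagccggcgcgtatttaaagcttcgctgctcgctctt
Gadd45b (chr10:80929841-80930090, + strand): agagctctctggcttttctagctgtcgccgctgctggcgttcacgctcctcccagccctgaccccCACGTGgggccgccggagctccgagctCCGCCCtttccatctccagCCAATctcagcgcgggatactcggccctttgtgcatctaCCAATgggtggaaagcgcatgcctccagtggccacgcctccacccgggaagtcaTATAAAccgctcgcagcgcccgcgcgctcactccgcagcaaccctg

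In the Plk2 promoter the capitals mark a cyclic AMP response element, TGACGTCA, from -62 to -55 of the start, and GC boxes (GGGCGG on either strand) from -230 to -225 and from -47 to -42. In the Gadd45b promoter they mark a TATA box (TATAAA) from -46 to -41, CCAAT boxes from -139 to -135 and from -100 to -96, a GC box from -158 to -153 and an E-box (CACGTG) from -185 to -180. The search covered both strands, and no motif overlapped another. Of 32851 mouse promoters of the same length, 1.55% held the response element, 12.4% the TATA box, 33.8% a CCAAT box, 32.7% a GC box and 6.02% the E-box. The response element was also found in the Cdkn2b promoter, from -46 to -39. The Gadd45g promoter held a TATA box, a CCAAT box and an E-box, the same kinds as Gadd45b apart from the GC box. An AP-1 site (TGACTCA), present in 4.46% of promoters, was in none of the members' windows, and a p53 decamer motif, present in 7.13%, was in that of Gadd45a. These matches describe letters only.

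The 10 genes lie on 6 chromosomes. Plk2 and Gadd45g are both on chromosome 13, Ccnd2, Cdkn1b and Gadd45a on chromosome 6, and Cdkn2a and Cdkn2b are neighbours on chromosome 4, 11669 bases apart. Gene counts could not separate p16 from p19ARF, because both come from Cdkn2a. Some members overlap other annotated genes, and although the library kit kept strand, whether the counting used it was not given. Ccnd3 overlaps Bysl, whose level reached 89.5% of that of Ccnd3 in 1 library, Ccnd1 overlaps LTO1, at 41.9% of Ccnd1 at most, and Cdkn2b overlaps the noncoding Gm12610, at 16.0% of Cdkn2b at most. Counts that ignore strand cannot tell the reads of such pairs apart.

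Which of these genes each cell type used was read from the vehicle libraries, in which the 4 cell types differed strongly. Ccnd1 fell to 27.9, 28.5 and 28.0 CPM in granulosa cells, against 359, 356 and 339 CPM in iPSCs (log2 difference -3.64 ± 0.03 SE, adjusted p = 7.04e-20, limma). Its level in PGCLCs was 128, 132 and 133 CPM, and in Sertoli cells 402, 392 and 382 CPM. Granulosa cells were thus the lowest and Sertoli cells the highest, with no overlap between any of the 4 groups.

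Ccnd2 was lowest in iPSCs and highest in granulosa cells. It stood at 180, 178 and 177 CPM in PGCLCs, 429, 435 and 421 CPM in Sertoli cells, 537, 516 and 544 CPM in granulosa cells, and only 8.89, 7.66 and 10.6 CPM in iPSCs. The log2 difference from iPSCs was 4.31 ± 0.08 (SE) in PGCLCs, 5.57 ± 0.08 in Sertoli cells and 5.89 ± 0.08 in granulosa cells, with adjusted p of 2.12e-15, 1.22e-17 and 9.45e-18 in that order. The iPSCs were apart from the other 3 cell types by more than any of those differed among themselves.

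Ccnd3 varied least of the D cyclins. Its level was 196, 197 and 204 CPM in PGCLCs, 104, 110 and 103 CPM in Sertoli cells, 76.5, 78.3 and 78.4 CPM in granulosa cells and 174, 175 and 168 CPM in iPSCs. PGCLCs were the highest and granulosa cells the lowest.

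Levels of different genes were compared per kilobase of merged exons. On that scale Ccnd2 made up 79.2% ± 0.58 (SD, n = 3) of the D cyclin transcripts in granulosa cells and Ccnd1 8.37% ± 0.26. In iPSCs Ccnd1 made up 78.4% ± 0.28 and Ccnd2 only 1.01% ± 0.19. Sertoli cells lay between, with 59.1% ± 0.60 from Ccnd1 and 32.3% ± 0.38 from Ccnd2. Of these groups, the direct vehicle PGCLCs had the most even mixture on this scale, 40.1% ± 0.41 from Ccnd1, 27.2% ± 0.58 from Ccnd2 and 32.7% ± 0.38 from Ccnd3. The summed D cyclin level was 69.4 ± 0.88 CPM per kb in PGCLCs, 141 ± 2.82 in Sertoli cells, 71.4 ± 1.45 in the granulosa cultures and 95.2 ± 2.54 in iPSCs, so that on this scale PGCLCs and granulosa cells had similar sums of different makeup. Merged exons join all annotated transcripts of a gene, 4709 bases for Ccnd1, 9409 for Ccnd2 and 8775 for Ccnd3. Which transcripts the cells made was not tested, so the shares and sums depend on these lengths.

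**Figure D1:**
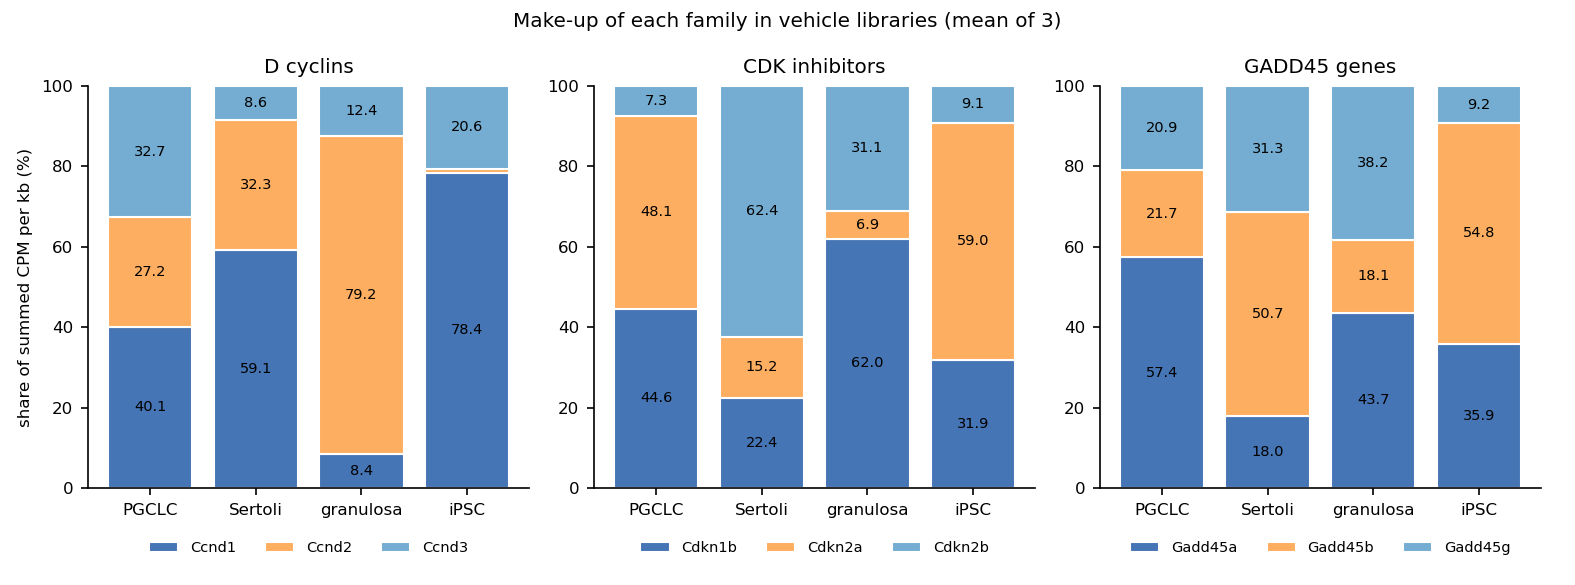
Share of each gene in the summed CPM per kb of its family (vertical axis, percent; mean of 3 vehicle libraries) in PGCLCs, Sertoli cells, granulosa cells and iPSCs, with 1 panel each for the D cyclins, the 3 CDK inhibitors and the GADD45 genes. Ccnd2 is 79.2% of the D cyclin signal in granulosa cells and 1.01% in iPSCs. Which of the 3 CDK inhibitors shown leads, or how they mix, differs by cell type, and other inhibitors such as Cdkn1a are not part of the shares.

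The CDK inhibitors also split by cell type. Cdkn2a was at 18.1, 20.2 and 20.3 CPM in PGCLCs, 8.39, 7.98 and 7.35 CPM in Sertoli cells, 3.21, 3.07 and 3.65 CPM in granulosa cells and 28.2, 28.0 and 28.8 CPM in iPSCs. Its linked neighbour Cdkn2b was higher in the somatic cultures, at 3.5, 3.44 and 3.65 CPM in PGCLCs, 41.6, 37.9 and 36.2 CPM in Sertoli cells, 18.8, 16.0 and 18.1 CPM in granulosa cells and 4.96, 5.03 and 5.59 CPM in iPSCs. Between Sertoli cells and iPSCs the log2 difference was -1.84 ± 0.08 (SE) for Cdkn2a and 2.88 ± 0.08 for Cdkn2b. Cdkn2a was therefore the higher of the linked pair in iPSCs and PGCLCs and Cdkn2b the higher in the somatic cultures, also per kilobase.

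Cdkn1b was at 71.2, 70.4 and 69.1 CPM in PGCLCs, 43.9, 45.3 and 46.6 CPM in Sertoli cells, 115, 118 and 112 CPM in granulosa cells and 59, 60.6 and 59 CPM in iPSCs. Granulosa cells were highest and Sertoli cells lowest of these groups, with no overlap, though the derived PGCLCs described below differed. Per kilobase, Cdkn1b made up 62% ± 2.33 (SD, n = 3) of the 3 inhibitors in granulosa cells, Cdkn2b made up 62.4% ± 1.46 in Sertoli cells, Cdkn2a made up 59% ± 0.40 in iPSCs, and in PGCLCs Cdkn2a (48.1% ± 1.84) and Cdkn1b (44.6% ± 1.74) were close. The sum of the 3 differed less, from 34.6 ± 0.90 CPM per kb in PGCLCs to 44.4 ± 2.09 in Sertoli cells. Other CDK inhibitors, Cdkn1a among them, were left out of these shares and of the sum.

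Of the GADD45 genes, Gadd45g stood at 12.7, 12.3 and 11.4 CPM in PGCLCs, 67.7, 77.5 and 65.1 CPM in Sertoli cells and 50.8, 48.5 and 48.8 CPM in granulosa cells, and was lowest in iPSCs, at 2.00, 2.30 and 2.08 CPM. The log2 difference from iPSCs was 2.50 ± 0.07 (SE) in PGCLCs, 5.02 ± 0.07 in Sertoli cells and 4.52 ± 0.07 in granulosa cells. Gadd45a was also lowest in iPSCs, with 48.8, 52.8 and 48.8 CPM in PGCLCs against 11.2, 11.5 and 14.8 CPM in iPSCs (log2 difference 2.01 ± 0.08). It reached 63.2, 61.2 and 56.8 CPM in Sertoli cells and 87.9, 81.1 and 85.4 CPM in granulosa cells.

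Gadd45b was highest in Sertoli cells, at 155, 155 and 150 CPM, against 34.4, 29.0 and 31.8 CPM in granulosa cells (log2 difference 2.27 ± 0.07, adjusted p = 2.22e-13, limma). In PGCLCs it was at 15.6, 17.1 and 18.5 CPM and in iPSCs at 18.0, 16.7 and 16.8 CPM. This pair overlapped and gave a log2 difference of -0.01 ± 0.07 with an adjusted p of 0.920, the 1 comparison of a member among these cell types that did not pass.

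Plk2 had the narrowest range of all members, at 133, 135 and 129 CPM in PGCLCs, 118, 125 and 113 CPM in Sertoli cells, 64, 65.6 and 65.6 CPM in granulosa cells and 79.6, 84.4 and 97.7 CPM in iPSCs. PGCLCs and Sertoli cells were the nearest pair of neighbours (log2 difference 0.16 ± 0.06, adjusted p = 0.0177). That difference did not pass with median-ratio scaling, where it was 0.10, and was 0.43 with upper-quartile scaling, and leaving out 1 library moved it between 0.13 and 0.20, with the call lost without Sertoli vehicle replicate 3 (adjusted p = 0.0787) or PGCLC vehicle replicate 2 (0.0555).

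Most genes differ between such unlike cells, and the counts have to be read against that background. Among 18503 genes tested, 76.2% passed between PGCLCs and iPSCs, where 9 of the 10 members passed. All 10 passed in each other pair, where the share of all genes was 89.9% between Sertoli cells and iPSCs, 89% between granulosa cells and iPSCs, 88.4% between PGCLCs and Sertoli cells, 85.7% between PGCLCs and granulosa cells, and 71.7% between Sertoli and granulosa cells. Scaling by the upper quartile moved the median of all genes by 0.27 (log2) between PGCLCs and Sertoli cells, by 0.21 between PGCLCs and granulosa cells, by 0.13 between PGCLCs and iPSCs and by -0.14 between Sertoli cells and iPSCs. Differences of that size were not stable: Gadd45a, lower in PGCLCs than in Sertoli cells with the authors' scaling (log2 difference -0.27 ± 0.08), was level under the upper quartile (0.0065), and the 0.16 by which Ccnd1 was higher in Sertoli cells than in iPSCs shrank to 0.02. Leaving out PGCLC vehicle replicate 1 moved no log2 difference of a member in these comparisons by more than 0.0625, and leaving out granulosa vehicle replicate 2 none by more than 0.0694, and no call was lost or gained with either. The shares within a family moved by at most 1.06 percentage points in PGCLCs and 1.33 in granulosa cells, where Cdkn1b became 60.7% of the inhibitors in place of 62%.

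**Figure D2:**
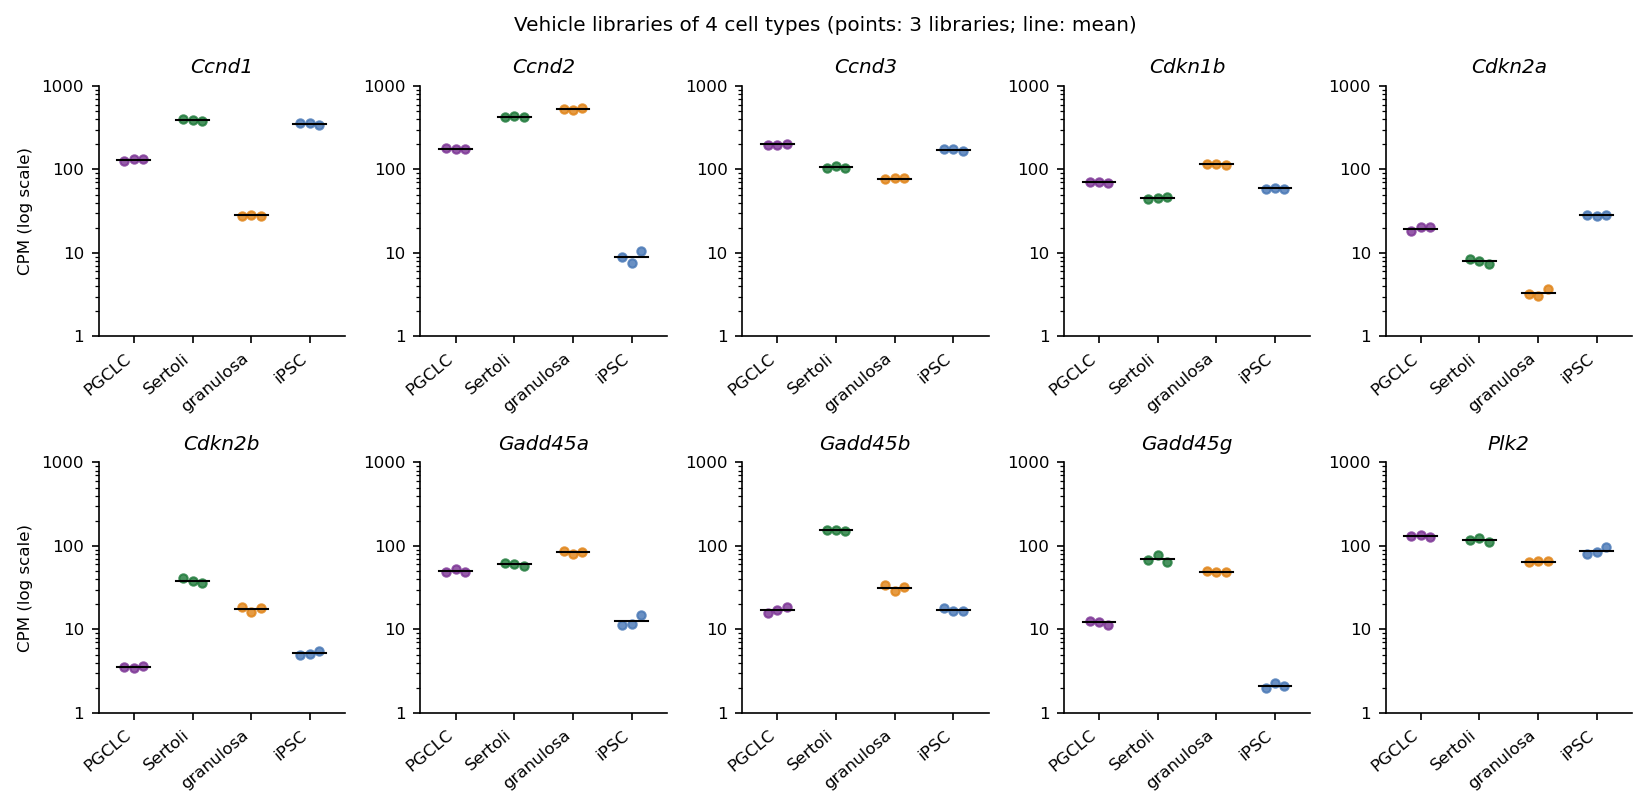
CPM on a log scale (vertical axis) of the 10 genes in vehicle libraries of PGCLCs, Sertoli cells, granulosa cells and iPSCs, 1 panel a gene, where points are the 3 libraries and lines their mean. Ccnd2, Gadd45a and Gadd45g are lowest in iPSCs, Cdkn2a is highest there, and Gadd45b is level between PGCLCs and iPSCs but about 155 CPM in Sertoli cells.

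The dose series asked how these genes respond in iPSCs as the dose of BPS rises. Plk2 rose at every dose. Its level was 79.6, 84.4 and 97.7 CPM with vehicle, 127, 124 and 135 CPM at 1 µM, 143, 158 and 174 CPM at 50 µM and 143, 153 and 160 CPM at 100 µM. All 9 exposed libraries lay above all 3 vehicle libraries.

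Relative to vehicle, the log2 difference of Plk2 was 0.56 ± 0.07 (SE, adjusted p = 9.01e-05) at 1 µM, 0.86 ± 0.07 (2.79e-07) at 50 µM and 0.81 ± 0.07 (5.08e-07) at 100 µM. These are 1.48-fold, 1.82-fold and 1.75-fold. The libraries at 50 µM and at 100 µM were also all above those at 1 µM, by 0.30 ± 0.07 and 0.24 ± 0.07, but neither difference passed over all genes (adjusted p = 0.504 and 0.119), and 100 and 50 µM overlapped. Without replicate 1, 2 or 3 at 1 µM the difference of Plk2 from vehicle was 0.57, 0.59 and 0.53 in that order.

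Gadd45b moved in the same direction. It was at 18.0, 16.7 and 16.8 CPM with vehicle, 18.5, 22.1 and 20.3 CPM at 1 µM, 22.4, 21.8 and 24.9 CPM at 50 µM and 19.2, 21.5 and 22.0 CPM at 100 µM. No exposed library fell within the vehicle range. The log2 difference from vehicle was 0.24 ± 0.08 at 1 µM (adjusted p = 0.0565, not passing), 0.42 ± 0.08 at 50 µM (5.21e-04) and 0.28 ± 0.08 at 100 µM (0.00895). With the median-ratio or the upper-quartile scaling Gadd45b passed at 1 µM as well, and also without 1 µM replicate 1 (0.30, adjusted p = 0.0197).

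Ccnd2, the scarce D cyclin of these cells, was at 8.89, 7.66 and 10.6 CPM with vehicle, 10.7, 11.1 and 10.8 CPM at 1 µM, 10.1, 11.9 and 12.4 CPM at 50 µM and 10.4, 10.7 and 9.52 CPM at 100 µM. The 50 µM libraries overlapped the highest vehicle library. It passed at 50 µM only, with a log2 difference of 0.35 ± 0.10 (adjusted p = 0.0160), against 0.28 ± 0.10 at 1 µM (0.101) and 0.18 ± 0.10 at 100 µM (0.182), and whether the doses differed did not pass either. The call at 50 µM was lost without vehicle replicate 1 (adjusted p = 0.0513), vehicle replicate 2 (0.112), 50 µM replicate 2 (0.0593) or 50 µM replicate 3 (0.0960), and with no filter on low genes (0.0652).

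Ccnd1, the main D cyclin of iPSCs, fell at 100 µM, to 302, 323 and 310 CPM, against 359, 356 and 339 CPM with vehicle (log2 difference -0.17 ± 0.05, adjusted p = 0.0116). At 1 µM it was at 336, 334 and 358 CPM and at 50 µM at 357, 355 and 337 CPM, both overlapping vehicle. The call at 100 µM was lost with upper-quartile scaling (adjusted p = 0.0805), in a fit of all 42 libraries (0.106), without vehicle replicate 1 (0.0594) and without 100 µM replicate 1 (0.0548). As a share per kilobase, Ccnd1 was 78.4% ± 0.28 (SD, n = 3) of the D cyclins with vehicle, 77.6% ± 1.10 at 1 µM, 77.7% ± 0.38 at 50 µM and 75.7% ± 0.44 at 100 µM.

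The other 6 genes did not pass at any dose. Ccnd3 stayed between 168 and 183 CPM in all 12 libraries, Cdkn1b between 55 and 63.3 CPM, Cdkn2a between 27 and 32.4 CPM and Cdkn2b between 4.96 and 6.65 CPM. Gadd45a ranged from 10.3 to 17.1 CPM and Gadd45g from 1.49 to 2.78 CPM, with SEs of 0.12 and 0.17 on the log2 scale, the widest of the 10. The largest differences from vehicle among the 6 were 0.23 for Gadd45a and 0.18 for Gadd45g, both at 50 µM.

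Against the background, 1 of 10 members passed at 1 µM, where 8.54% of the 16349 genes tested passed, 3 at 50 µM, where 26.4% passed, and 3 at 100 µM, where 30.7% passed, shares close to the members' own. Between doses 0 members passed by limma (4 members at an unadjusted p under 0.05 in at least 1 of the 3 pairs: Gadd45a, Gadd45b and Plk2 for 50 against 1 µM, Ccnd1 and Plk2 for 100 against 1 µM, and Ccnd1 for 100 against 50 µM), and limma-voom on recovered reads also gave 0. The share of all genes was 0.00612% for 50 against 1 µM, 0.44% for 100 against 1 µM and 0.055% for 100 against 50 µM.

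**Figure D3:**
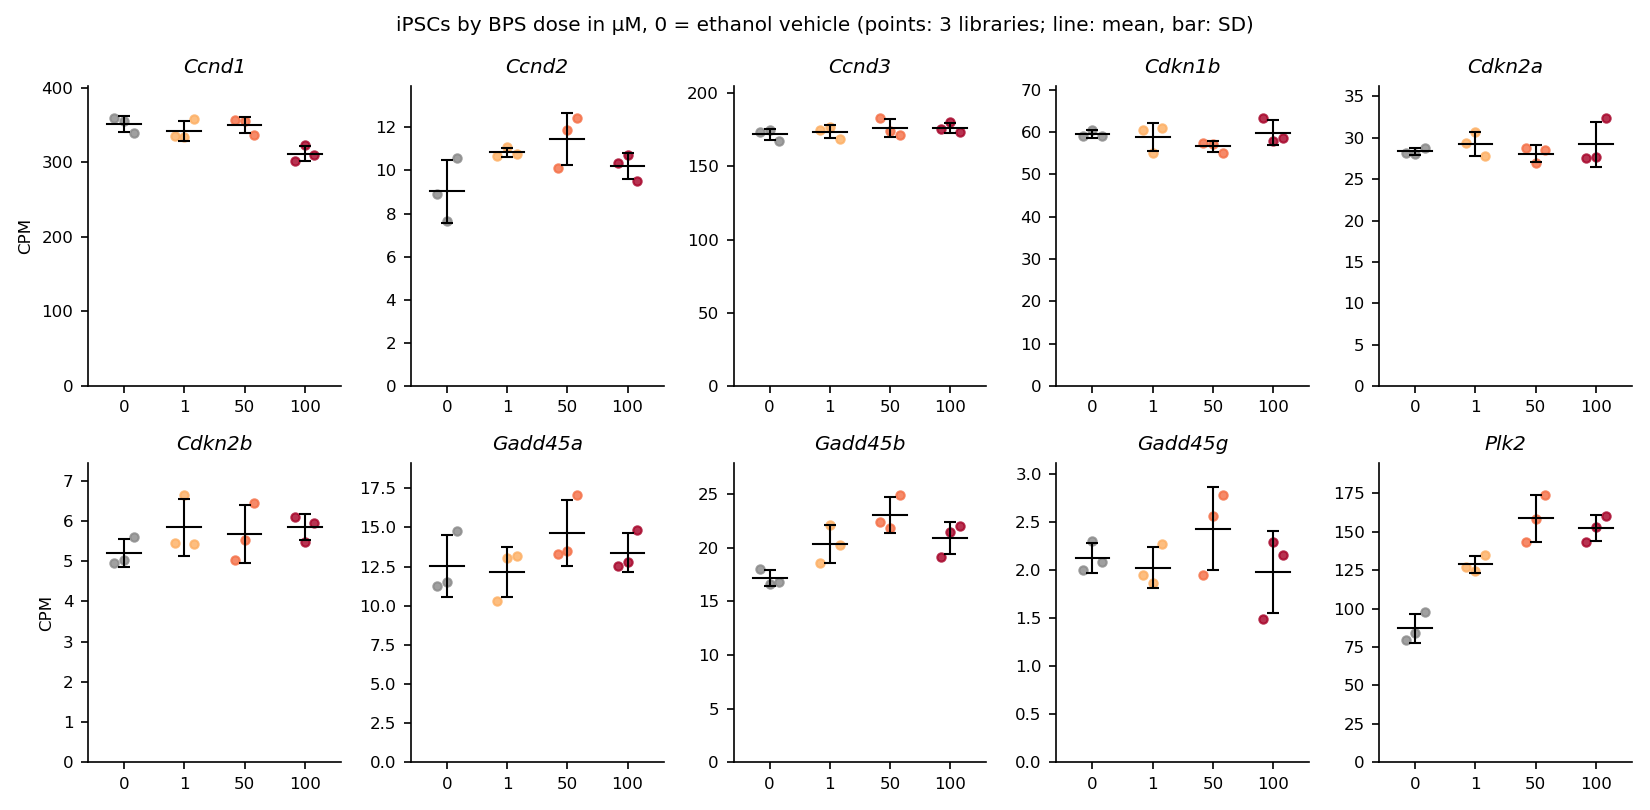
CPM (vertical axis, from 0) of the 10 genes in iPSCs by dose of BPS in µM (horizontal axis, where 0 is vehicle), 1 panel a gene, with points for the 3 libraries, a line for the mean and a bar for the SD. Plk2 libraries are all above vehicle at each dose, Gadd45b likewise, and Ccnd1 is lower at 100 µM, while Ccnd3, Cdkn1b and Cdkn2a overlap across most doses.

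Other genes of the same pathways in iPSCs were taken from lists set with earlier results of these data known, so their values are no independent support. Among them, Cdkn1a had itself been named as changed in exposed iPSCs and in the PGCLCs derived from them. Cdkn1a, which encodes the p53-induced inhibitor p21, was 348 CPM on average with vehicle and rose at every dose, by 0.18 ± 0.05 (log2, SE) at 1 µM, 0.29 ± 0.05 at 50 µM and 0.15 ± 0.05 at 100 µM. Of 5 CDK inhibitors outside the 10 members, 1 passed as higher at 1 µM, 2 at 50 µM (Cdkn1a and Cdkn1c, 0.29 ± 0.08) and 1 at 100 µM, and none passed as lower. Of 7 kinases and cyclins of G1 and S phase, 0 were higher at any dose and 2, 2 and 5 were lower at 1, 50 and 100 µM. Among them Ccne1, the S phase entry cyclin, fell by 0.23, 0.39 and 0.45 on the log2 scale and Ccna2 fell by 0.17, 0.29 and 0.28. Several calls at 1 µM rested on single libraries: those of Cdkn1a, Ccne1 and Ccna2 were lost without 1 µM replicate 3, and that of Ccna2 also without replicate 1. The list medians were -0.08, -0.14 and -0.17, against -0.0084, -0.0034 and -0.0003 for all genes.

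Of 11 pocket proteins and E2F factors, 2, 4 and 3 were lower at 1, 50 and 100 µM and 0 higher, with the repressor E2f8 at -0.34 ± 0.08, -0.37 ± 0.08 and -0.31 ± 0.08. In the list of 5 genes of the ARF and p53 axis, 0 passed at 1 µM, 3 were lower at 50 µM and 3 lower and 1 higher at 100 µM, with Npm1, which holds ARF in the nucleolus, at -0.31 ± 0.08 at both higher doses and Trp53 at -0.16 ± 0.05 and -0.13 ± 0.05. Without 1 µM replicate 1 the pocket protein and E2F list had 5 genes lower at 1 µM in place of 2, and without replicate 3 it had 1. Of the other 4 polo-like kinases, none passed at 1 µM and none as higher at any dose. Plk4 and Plk1, kinases of centriole duplication and of mitosis, were lower at 50 µM (-0.24 ± 0.06 and -0.17 ± 0.06) and at 100 µM (-0.25 ± 0.06 and -0.26 ± 0.06), and Plk3 and Plk5 did not pass.

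The partners of GADD45 had 0, 2 and 1 of 9 genes lower and 0 higher, including the stress kinase Mapk8 at -0.21 ± 0.07 at 50 µM and -0.23 ± 0.07 at 100 µM. Of 7 genes for the turnover of p27 and D cyclins, 0 passed at 1 and 50 µM, and at 100 µM the F-box gene Fbxo4 was higher (0.78 ± 0.22, at 2.38 CPM on average, against 1.43 CPM with vehicle) and the SKP2 cofactor Cks1b lower (-0.22 ± 0.06). Of the proliferation genes, Mki67 fell at 1 and 50 µM, Top2a at 50 and 100 µM and Pcna at 100 µM, and the call of Mki67 at 1 µM was lost without 1 µM replicate 2 or replicate 3. Top2a was 878 to 966 CPM with vehicle, 804 to 805 at 1 µM, 660 to 793 at 50 µM and 688 to 773 at 100 µM. Marker lists moved with the dose too. The 6 PGCLC markers summed to 170 to 174 CPM with vehicle, 135 to 145 at 1 µM, 130 to 137 at 50 µM and 132 to 136 at 100 µM. The 4 macrophage markers summed to 13.7 to 16.3, 18.0 to 18.8, 20.4 to 22.8 and 21.2 to 21.7 CPM, with Cd68 as the 1 marker at 1 CPM or more. The 3 germ cell markers summed to 10.6, 13.4 to 16.9, 13.7 to 15.8 and 14.2 to 14.3 CPM. Of 10 such lists, 4 lay wholly above and 1 wholly below vehicle at 1 µM, 4 above and 1 below at 50 µM, and 3 above and 2 below at 100 µM. Their part in the changes of the 10 genes was not tested.

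The same dose of 1 µM was then compared in the other cell types. In PGCLCs, 6 of 10 members passed, where 26.6% of the 16342 genes tested passed. Ccnd1, Ccnd2 and Gadd45a rose and Cdkn1b, Cdkn2a and Gadd45b fell, all by a fold between 0.764 and 1.15.

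Gadd45b fell most, to 12.2, 14.3 and 12.6 CPM in BPS-exposed PGCLCs, against 15.6, 17.1 and 18.5 CPM in vehicle PGCLCs (log2 difference -0.39 ± 0.08 SE, adjusted p = 0.00176). The groups did not overlap. Without vehicle replicate 1, which stood apart, the difference was -0.45 (0.00191). This was the 1 call of the 6 that held in every alternative tried.

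Ccnd1 and Ccnd2 were higher with BPS. Ccnd1 was at 146, 158 and 148 CPM in BPS-exposed PGCLCs, against 128, 132 and 133 CPM in vehicle PGCLCs (0.20 ± 0.04, adjusted p = 7.16e-04). Ccnd2 was at 182, 218 and 211 CPM in BPS-exposed PGCLCs, against 180, 178 and 177 CPM in vehicle PGCLCs (0.19 ± 0.05, 0.0104), with BPS replicate 1 just above the vehicle range. Ccnd3 overlapped, at 203 to 207 CPM with BPS and 196 to 204 CPM with vehicle. Without vehicle replicate 1 the differences were 0.18 (0.00535) for Ccnd1 and 0.20 (0.0297) for Ccnd2, whose call was lost without BPS replicate 3 (0.0505).

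Gadd45a was at 56.7, 56.7 and 58.4 CPM in BPS-exposed PGCLCs, against 48.8, 52.8 and 48.8 CPM in vehicle PGCLCs (0.19 ± 0.04, adjusted p = 0.00328), and 0.17 (0.0187) without vehicle replicate 1. It therefore moved opposite to Gadd45b within the same libraries. Per kilobase, Gadd45a made up 62.5% ± 1.31 (SD, n = 3) of the GADD45 transcripts with BPS and 57.4% ± 1.06 with vehicle, and Gadd45b 15.8% ± 1.14 with BPS and 21.7% ± 1.79 with vehicle.

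The inhibitors fell by less. Cdkn1b was at 62.5, 63.8 and 67.8 CPM in BPS-exposed PGCLCs, against 71.2, 70.4 and 69.1 CPM in vehicle PGCLCs (-0.12 ± 0.04, adjusted p = 0.0330). Cdkn2a was at 18.0, 16.2 and 17.4 CPM in BPS-exposed PGCLCs, against 18.1, 20.2 and 20.3 CPM in vehicle PGCLCs (-0.18 ± 0.06, 0.0476). Both groups were separate, for Cdkn2a by less than 0.1 CPM. Neither call was stable: Cdkn1b was lost in 5 and Cdkn2a in 4 of the 6 fits that left out 1 library, with adjusted p up to 0.239 over all alternatives for each, and without vehicle replicate 1 Cdkn1b was at -0.11 (0.0998) and Cdkn2a at -0.23 (0.0248).

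In a fit of all 42 libraries, which share 1 estimate of the spread, only Gadd45b of the 6 passed in PGCLCs, and with no filter on low genes Ccnd1, Gadd45a and Gadd45b did. Cdkn2b, Ccnd3, Gadd45g and Plk2 did not pass, with differences between -0.04 (Plk2) and 0.14 (Cdkn2b). Plk2 was at 124, 131 and 130 CPM in BPS-exposed PGCLCs, against 133, 135 and 129 CPM in vehicle PGCLCs.

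Of the lists in PGCLCs, the partners of GADD45 had 6 of 9 genes higher and 0 lower (list median 0.16, against 0.02 for all genes), among them the stress kinase Mapk14 (0.23 ± 0.04), its activator Map2k3 (0.23 ± 0.04) and Gadd45gip1 (0.18 ± 0.05). Of 5 other CDK inhibitors, Cdkn1c, which encodes p57, was higher (0.25 ± 0.03) and none lower. Of the pocket proteins and E2F factors 1 was higher and 4 lower, with E2f1 at -0.22 ± 0.04, E2f8 at -0.23 ± 0.05 and Rbl1 at -0.20 ± 0.05. Of the ARF and p53 axis Bmi1, a repressor of the Cdkn2a locus, was higher (0.24 ± 0.06) and the p53 inhibitor Mdm4 lower (-0.16 ± 0.04). Skp2, which marks p27 for degradation, and its cofactor Cks1b were higher (0.29 ± 0.09 and 0.10 ± 0.04), Plk1 was higher (0.24 ± 0.03) and Plk4 lower (-0.20 ± 0.04), and none of the G1 and S phase kinases and cyclins or the proliferation genes passed. Without vehicle replicate 1 the calls of Map2k6, E2f7 and Cks1b were lost, which left 5 GADD45 partners higher, and every other listed call was kept.

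Marker levels moved in these libraries as well. The 7 iPSC markers summed to 1978 to 2197 CPM in BPS-exposed PGCLCs, against 2535 to 2598 CPM in vehicle PGCLCs, and the 6 PGCLC markers to 203 to 233 CPM with BPS and 248 to 254 CPM with vehicle, with all markers of both lists at 1 CPM or more. The 5 fibroblast genes summed to 84.7 to 93.4 CPM with BPS and 77.5 to 81.6 CPM with vehicle, 4 of them at 1 CPM or more. The 3 germ cell markers summed to 11.2 to 13.4 CPM with BPS and 15.0 to 16.1 CPM with vehicle, and the granulosa and macrophage lists, under 10 CPM, were also lower. None of these ranges overlapped, those of the other 4 lists did, and their part in the changes of the 10 genes was not tested.

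Sertoli cells had 1 call among the 10 members, where 5.24% of the 15648 genes tested passed. Ccnd2 fell to 383, 401 and 371 CPM in BPS-exposed Sertoli cells, against 429, 435 and 421 CPM in vehicle Sertoli cells (log2 difference -0.15 ± 0.03, adjusted p = 0.0137). The groups did not overlap, but the call was lost without vehicle replicate 2 (0.0880) or BPS replicate 1 (0.0823), with no filter (0.189) and in the fit of all 42 libraries (0.558). Ccnd1, at 431, 422 and 407 CPM with BPS and 402, 392 and 382 CPM with vehicle, was separate in the other direction and did not pass (0.10 ± 0.03, 0.0753). As a share per kilobase, Ccnd2 was 28.7% ± 0.65 (SD, n = 3) of the D cyclins with BPS and 32.3% ± 0.38 with vehicle.

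The remaining 8 members lay between -0.17 (Cdkn2a) and 0.10 (Plk2) on the log2 scale in Sertoli cells. Gadd45b, at 159, 165 and 162 CPM with BPS and 155, 155 and 150 CPM with vehicle, and Plk2, at 126, 126 and 127 CPM with BPS and 118, 125 and 113 CPM with vehicle, had groups that did not overlap but adjusted p of 0.15 and 0.139.

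Listed cell cycle genes that passed in the Sertoli cultures were all higher. Of 7 G1 and S phase kinases and cyclins 2 were higher (Ccna2 0.26 ± 0.04 and Cdk4 0.12 ± 0.03), of the other 5 CDK inhibitors 3 (Cdkn3, Cdkn2d and Cdkn2c), of the pocket proteins and E2F factors 3 (E2f7, E2f1 and Rbl1), of the p53 axis 1 (Npm1), of the turnover genes 2 (Cks1b and Cks2), of 3 polo-like kinases tested 2 (Plk1 and Plk4) and of the proliferation genes 2 (Pcna 0.25 ± 0.04 and Top2a 0.18 ± 0.04), with 0 lower in any list and 0 passing among the GADD45 partners. The 5 fibroblast genes summed to 972 to 1056 CPM in BPS-exposed Sertoli cultures, against 1100 to 1190 CPM in vehicle cultures, all 5 at 1 CPM or more. The other lists of 10 that did not overlap were lower too: 4 Leydig cell genes, 1 of them at 1 CPM or more, summed to 163 to 167 CPM with BPS and 177 to 184 CPM with vehicle, 3 germ cell genes to 9.49 to 12.6 CPM with BPS and 14.9 to 16.7 CPM with vehicle, and the PGCLC markers to 42.5 to 44.5 CPM with BPS and 48.8 to 52.6 CPM with vehicle. The part of these lists in the fall of Ccnd2 was not tested.

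Granulosa cells also had 1 call, where 2.6% of the 15712 genes tested passed. Gadd45g rose to 56.9, 58.1 and 57.5 CPM in BPS-exposed granulosa cells, against 50.8, 48.5 and 48.8 CPM in vehicle granulosa cells (log2 difference 0.22 ± 0.04, adjusted p = 0.00206), with no overlap. It passed in each of the 6 fits that left out 1 library (0.21 without vehicle replicate 2), and not with no filter (0.0987) or in the fit of all 42 libraries (adjusted p of 1). All 3 D cyclins were higher in every BPS library than in every vehicle library and none passed: Ccnd1 was at 28.9 to 32.6 CPM with BPS and 27.9 to 28.5 CPM with vehicle, Ccnd2 at 560 to 565 CPM with BPS and 516 to 544 CPM with vehicle, and Ccnd3 at 79.1 to 82.3 CPM with BPS and 76.5 to 78.4 CPM with vehicle. Their differences were 0.12, 0.08 and 0.06, with adjusted p of 0.219, 0.110 and 0.425, and without vehicle replicate 2 they were 0.13, 0.06 and 0.06. The median difference of all genes tested was 0.02, and the share of all genes with separate groups was not counted. The ribosomal share of the BPS libraries was 0.136% to 0.184%, against 0.487%, 0.16% and 0.603% in vehicle replicates 1, 2 and 3. The part of this ribosomal share in the rise of Gadd45g was not tested.

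Cdkn2b was likewise separate in granulosa cells and did not pass, at 20.6, 19.0 and 19.8 CPM with BPS and 18.8, 16.0 and 18.1 CPM with vehicle (0.17 ± 0.06, adjusted p = 0.186, and 0.10 without vehicle replicate 2). Of the lists, Cdkn1a was higher (0.12 ± 0.03, a call lost without vehicle replicate 2) and Mdm4 (-0.14 ± 0.03) and Mki67 (-0.13 ± 0.03) lower, and no other listed gene passed. The 5 fibroblast genes summed to 3440 to 3788 CPM in BPS-exposed granulosa cultures, against 3208 to 3437 CPM in vehicle cultures, and the 4 smooth muscle genes to 2217 to 2339 CPM with BPS and 2003 to 2060 CPM with vehicle, all at 1 CPM or more. The Leydig or theca list was lower, at 625 to 657 CPM with BPS and 687 to 775 CPM with vehicle, with 2 of its 4 genes at 1 CPM or more, and so were the PGCLC markers, at 23.3 to 26.5 CPM with BPS and 28.2 to 34.0 CPM with vehicle. The other 6 lists overlapped. The part of these lists in the rise of Gadd45g was not tested.

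**Figure D4:**
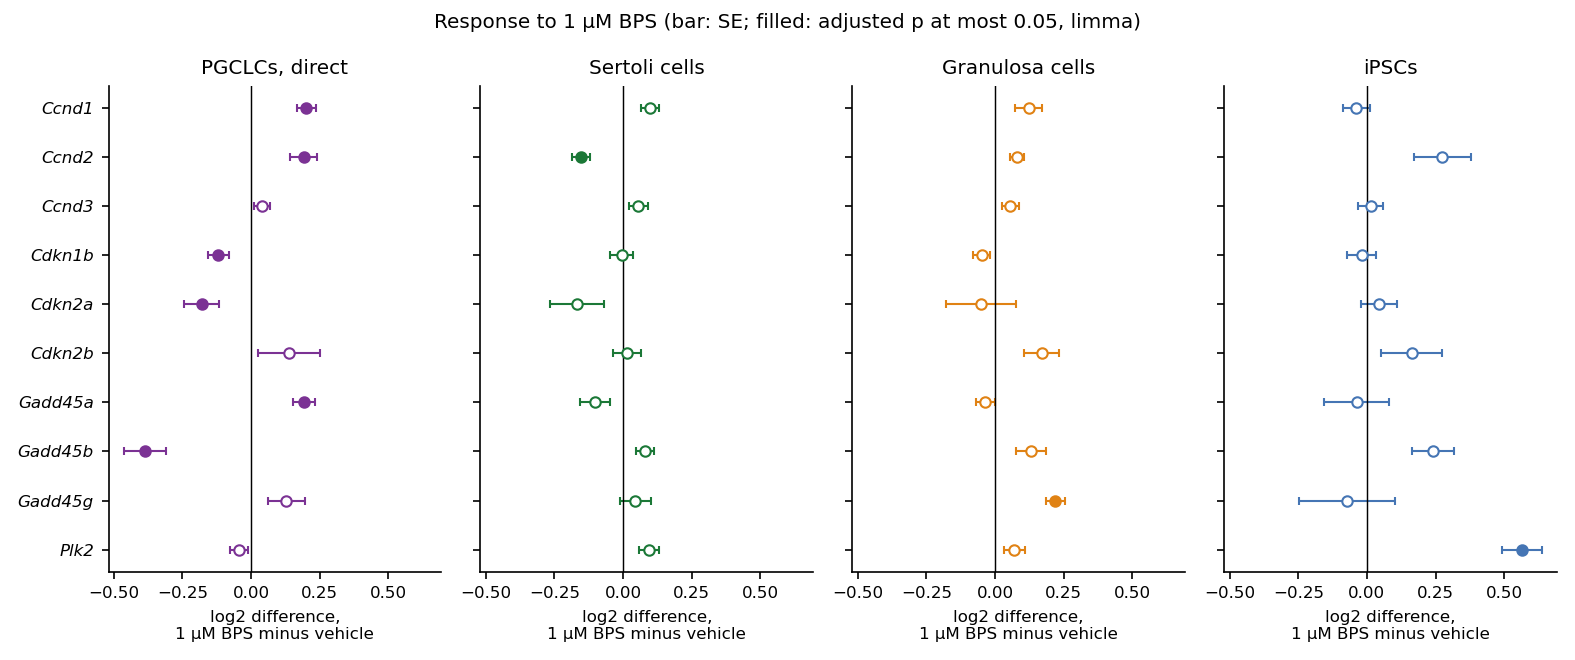
Log2 difference, 1 µM BPS minus vehicle (horizontal axis), of the 10 genes in directly exposed PGCLCs, Sertoli cells, granulosa cells and iPSCs, with bars for the SE and filled points where the adjusted p is at most 0.05 (limma, over all genes tested). Plk2 is at 0.56 in iPSCs and between -0.04 and 0.10 elsewhere, and Gadd45b is at -0.39 in PGCLCs and above 0 in the other 3.

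Whether the responses to 1 µM differed between cell types was tested directly, in 1 fit of 24 libraries, each cell type against iPSCs. The response of Plk2 was lower in all 3, by a log2 difference of responses of -0.61 ± 0.08 (SE, adjusted p = 8.34e-06) for PGCLCs, -0.47 ± 0.08 (3.81e-04) for Sertoli cells and -0.49 ± 0.08 (5.38e-04) for granulosa cells. These 3 differences share the same 6 iPSC libraries. Plk2, Ccnd2 and Gadd45g had been named as changed in iPSCs given 1 µM BPS in the propagation experiment. A response in iPSCs thus took part in their choice, and their tests against iPSCs are not independent of it. Gadd45b responded in opposite directions in PGCLCs (-0.39) and iPSCs of the dose series (0.24, itself not passing), a difference of -0.63 ± 0.10 (1.25e-04). In the iPSCs of the propagation experiment, also given 1 µM, Gadd45b overlapped between BPS and vehicle. Its difference there was 0.04 ± 0.13 (SD of log2 values pooled over both groups, no test). Without PGCLC vehicle replicate 1 these PGCLC differences were -0.60 for Plk2 and -0.69 for Gadd45b, both still passing. Without granulosa vehicle replicate 2 the granulosa difference of Plk2 stayed at -0.49 (0.00230). Leaving out any of the 3 iPSC libraries at 1 µM kept all these calls, with Plk2 between -0.57 and -0.63 for PGCLCs, -0.43 and -0.49 for Sertoli cells and -0.46 and -0.52 for granulosa cells, and with Gadd45b between -0.57 and -0.69.

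The response of Ccnd1 was 0.20 in PGCLCs and -0.04 in iPSCs (not passing), a difference of 0.24 ± 0.06 (adjusted p = 0.00676). That of Ccnd2 was -0.15 in Sertoli cells and 0.28 in iPSCs (itself not passing, adjusted p = 0.101), a difference of -0.43 ± 0.10 (0.00794). The Ccnd1 difference was 0.22 without PGCLC vehicle replicate 1 and did not pass with upper-quartile scaling or in the fit of all 42 libraries. The Ccnd2 difference did not pass in the fit of all 42 libraries (0.0510). Both passed without any 1 of the iPSC libraries at 1 µM, at 0.22 to 0.27 for Ccnd1 and -0.41 to -0.44 for Ccnd2. Without 1 µM replicate 3, Gadd45g also passed for granulosa cells (0.38, adjusted p = 0.0425, against 0.29 and 0.124 with it). Of the lists, the responses of 2 of 7 G1 and S phase kinases and cyclins, 5 of 11 pocket proteins and E2F factors and 3 of 3 proliferation genes were higher in Sertoli cells than in iPSCs, with 0 lower. For PGCLCs the same lists had 2, 2 and 2 higher and 0, 1 and 0 lower in that order. For granulosa cells they had 1, 0 and 0 higher and 0 lower in each. In all, 3 members passed for PGCLCs against iPSCs, where 14.1% of the 19157 genes tested passed, 2 for Sertoli cells, where 11.2% passed, and 1 for granulosa cells, where 3.48% passed. The recovery time of PGCLCs was 8 h and that of iPSCs 24 h, and PGCLCs were exposed within aggregates in plates rather than in sealed flasks. For PGCLCs against iPSCs, cell type therefore cannot be told apart from time after exposure or the manner of exposure. Experiment and cell type cannot be told apart in any of these comparisons.

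The propagation experiment followed the members from exposed iPSCs into the PGCLCs derived from them, and its values were part of how the genes were chosen. In the iPSCs, Plk2 was at 103, 98.3 and 99.6 CPM with BPS and 75.7, 69.7 and 70.3 CPM with vehicle (log2 difference 0.48 ± 0.05, where the error is the SD of log2 values pooled over both groups). Ccnd2 was at 7.60, 7.49 and 7.13 CPM with BPS and 6.18, 4.81 and 5.09 CPM with vehicle (0.47 ± 0.14). Gadd45g was at 1.74, 2.13 and 1.92 CPM with BPS and 1.47, 1.20 and 1.23 CPM with vehicle (0.56 ± 0.15). For these 3 genes every BPS library was above every vehicle library. At the same dose in the dose series, Gadd45g had overlapped between BPS and vehicle (-0.07 ± 0.17, SE).

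Cdkn1b was at 57.3, 46.8 and 59.8 CPM with BPS and 69.5, 65 and 65.4 CPM with vehicle (-0.29 ± 0.14), and Ccnd1 at 297, 240 and 303 CPM with BPS and 320, 311 and 306 CPM with vehicle (-0.16 ± 0.13). Both were lower in all 3 BPS libraries, and lowest in replicate 2, the library that stood apart. Without it the differences were -0.19 for Cdkn1b and -0.06 for Ccnd1, whereas those of Plk2 (0.50), Ccnd2 (0.46) and Gadd45g (0.49) moved little. That library also had the group's lowest Mki67 level, 208 CPM, against up to 335 CPM in its partners and 356 to 378 CPM with vehicle. The other 5 members overlapped between BPS and vehicle, with differences from 0.01 (Ccnd3) to 0.26 (Cdkn2b). The share of all genes with separate groups was not counted, here or in the derived PGCLCs. Of the 10 marker lists, 5 lay wholly above and 2 wholly below vehicle in these iPSCs.

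In the derived PGCLCs the same 3 genes were again higher in every library of exposed origin. Ccnd2 was at 81.2, 96.1 and 75.7 CPM in PGCLCs from BPS-exposed iPSCs, against 62.2, 75.3 and 65.2 CPM in PGCLCs from vehicle iPSCs (0.32 ± 0.16), with the groups almost touching. Gadd45g was at 37.8, 41.4 and 32.1 CPM in PGCLCs from BPS-exposed iPSCs, against 26.7, 31.4 and 28.3 CPM in those from vehicle iPSCs (0.36 ± 0.16). Plk2 was at 123, 114 and 126 CPM in PGCLCs from BPS-exposed iPSCs, against 106, 109 and 103 CPM in those from vehicle iPSCs (0.19 ± 0.06). Without vehicle replicate 2 the differences were 0.40 for Ccnd2, 0.43 for Gadd45g and 0.21 for Plk2, and without BPS replicate 3 they were 0.39, 0.46 and 0.16.

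Gadd45a and Ccnd3 were lower there. Gadd45a was at 46.8, 46.5 and 57.5 CPM in PGCLCs from BPS-exposed iPSCs, against 66.6, 60.3 and 61.9 CPM in those from vehicle iPSCs (-0.33 ± 0.13), and Ccnd3 at 229, 214 and 239 CPM against 273, 270 and 276 CPM in the same order (-0.27 ± 0.06). Both had overlapped between BPS and vehicle in the iPSCs. The remaining 5 members overlapped, with differences from -0.15 (Cdkn2a) to 0.12 (Ccnd1). The 7 iPSC markers summed to 1314 to 2017 CPM in PGCLCs from BPS-exposed iPSCs, against 1805 to 2424 CPM in those from vehicle iPSCs, and the 5 fibroblast genes to 290 to 468 CPM with exposed origin and 279 to 409 CPM with vehicle origin. The 6 PGCLC markers summed to 242 to 304 CPM with exposed origin and 298 to 396 CPM with vehicle origin. Of the 10 lists, 1 lay wholly above vehicle origin (granulosa, 5.65 to 5.92 CPM against 3.80 to 5.15 CPM) and 0 wholly below. The part of these lists in the differences of the members was not tested.

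**Figure D5:**
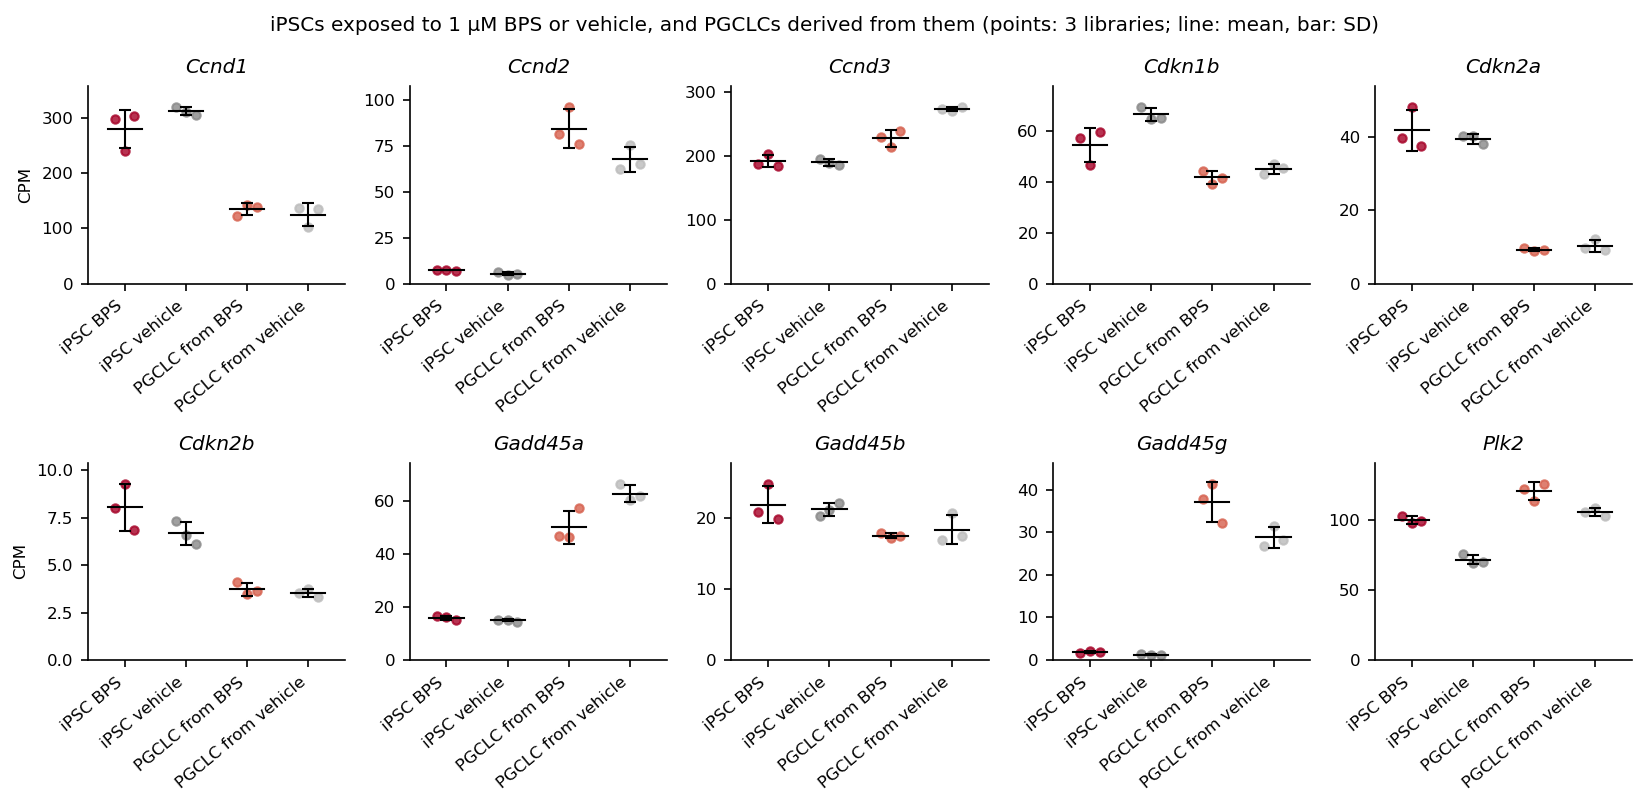
CPM (vertical axis, from 0) of the 10 genes in BPS-exposed and vehicle iPSCs and in the PGCLCs derived from each, 1 panel a gene, with points for the 3 libraries, a line for the mean and a bar for the SD. Plk2, Ccnd2 and Gadd45g are higher in every library of exposed origin in both cell types, a pattern that took part in the choice of the genes.

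Several levels of the derived PGCLCs were far from those of directly exposed ones, with vehicle alone in both. Ccnd2 was at 62.2, 75.3 and 65.2 CPM in the derived vehicle PGCLCs and 180, 178 and 177 CPM in the direct vehicle PGCLCs, Cdkn2a at 9.78, 12.1 and 9.04 CPM and 18.1, 20.2 and 20.3 CPM, and Gadd45g at 26.7, 31.4 and 28.3 CPM and 12.7, 12.3 and 11.4 CPM, in the same order. Per kilobase, Ccnd3 made up 48.1% ± 2.48 (SD, n = 3) of the D cyclins in the derived vehicle PGCLCs and 32.7% ± 0.38 in the direct ones. Ccnd2 made up 11.1% ± 1.83 in the derived and 27.2% ± 0.58 in the direct ones, and Ccnd1 40.8% ± 4.31 and 40.1% ± 0.41. The more even mixture was thus that of the direct PGCLCs only. The 5 fibroblast genes summed to 279 to 409 CPM in the derived and 77.5 to 81.6 CPM in the direct vehicle PGCLCs, and their part in these gaps was not tested. The experiment and the history of the cells cannot be told apart in this contrast, which was not tested.

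The genes whose mean levels followed each member most closely over the 14 groups were found among 19591 genes, as a description in which the points share cell types. Ccnd1 was closest to Arl6ip1 (Pearson r = 0.993), Ccnd2 to Tcaf2 (0.997), Ccnd3 to Mns1 (0.991), Cdkn1b to Slc6a6 (0.983), Cdkn2a to Gm46638 (0.991), Cdkn2b to Mfsd3 (0.991), Gadd45a to Gng11 (0.991), Gadd45b to Capns1 (0.994) and Gadd45g to Cd44 (0.995). The runners-up were Plekhg1 (0.988), St3gal6 (0.994), Rad51c_1 (0.985), Oxtr (0.944), Pzp (0.988), Rilpl2 (0.991), Mpdz (0.991), Map4 (0.991) and Sh3glb1 (0.994) in the same order. Plk2 had no such close match: its nearest were Gm46287 (0.932) and Etl4 (0.885). Among the members themselves, Ccnd2 and Gadd45a were the closest pair (0.951), followed by Ccnd2 and Gadd45g (0.947) and Cdkn2b and Gadd45b (0.923).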

How the data were processed

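Per the study's methods, strand-specific libraries were made, and the authors aligned reads to mm10 with Rsubread, counted reads per gene, scaled the counts with edgeR's trimmed mean of M-values (TMM) and computed CPM. The sources used here name neither the strand setting and annotation of the counting nor the versions of the aligner and of the scaling tool used by the authors. That the deposited values are on a log2 scale with a small CPM added was read from the values themselves. The deposited log2 values were turned back into CPM by removing the added 0.0313 CPM, and into reads, which came out whole within 0.05 reads for every value under 1000 reads. Total reads were 26693847 to 44524376 per library, which fixes the counting precision.

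Tests were run with limma 3.58.1 in R 4.3.3 (eBayes with a mean-variance trend, two-sided) on log2(CPM + 0.0313), with genes kept where 3 or more of the fitted libraries reached 0.5 CPM. P-values were adjusted over all genes tested by Benjamini-Hochberg, with a threshold of 0.05. The dose series was 1 fit of 12 libraries, each other 1 µM comparison a fit of its own 6, the vehicle comparison a fit of 12 and the comparison of responses a fit of 24. A fold change is on the log2(CPM + 0.0313) scale.

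The members and the gene lists were chosen with earlier results of these data known. Named genes are the 10 members, up to 3 called genes of each of 8 context lists per contrast by smallest adjusted p, and the 2 genes most like each member. The fits were also run on simulated reads with known changes. The simulation gave all genes a common spread and held no library that stood apart, so it cannot speak to calls that rest on such libraries. Lengths are merged exons of GENCODE M21. Alternatives were an added CPM of 1, no filter, a CPM of at least 5, median-ratio and upper-quartile scaling, a replicate block, other sets of libraries, limma-voom on the recovered reads and leaving out each library.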

Additional observations from a re-analysis of the deposited data

Results flagged for a closer look

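The response to 1 µM BPS differed between cell types, by a test of the difference itself (limma, 24 libraries), for 6 results on 4 of the members. For Plk2 the response in iPSCs was higher than in the other 3 cell types, by a difference of responses of -0.61 for PGCLCs against iPSCs (adjusted p = 8.34e-06), -0.47 for Sertoli cells against iPSCs (3.81e-04) and -0.49 for granulosa cells against iPSCs (5.38e-04), with the iPSC libraries shared by all 3. In iPSCs all 3 exposed Plk2 libraries were above all 3 vehicle libraries, and in PGCLCs 2 of 3 exposed libraries were within the vehicle range.

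Gadd45b differed by -0.63 for PGCLCs against iPSCs (adjusted p = 1.25e-04), lower in 3 of 3 exposed PGCLC libraries and higher in 3 of 3 exposed iPSC libraries of the dose series than in any vehicle library. In the iPSCs of the propagation experiment Gadd45b overlapped between BPS and vehicle (0.04, no test). Ccnd1 differed by 0.24 for PGCLCs against iPSCs (0.00676) and Ccnd2 by -0.43 for Sertoli cells against iPSCs (0.00794). The choice of Plk2 and Ccnd2 rested in part on a response of iPSCs to BPS in that experiment, so their tests against iPSCs are not independent of it.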

How the results depend on the processing

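With median-ratio or upper-quartile scaling, 2 members passed in iPSCs at 1 µM (Gadd45b and Plk2) instead of 1. With no filter on low genes, 3 passed in PGCLCs instead of 6, 0 in Sertoli cells instead of 1 and 0 in granulosa cells instead of 1. In the fit of all 42 libraries, 1 passed in PGCLCs, 0 in granulosa cells and 0 in Sertoli cells, and 1 for the Sertoli response against that of iPSCs instead of 2; the cause was not tested. The share of all genes called was also lower, at 0.027% in Sertoli cells and 0.0406% in granulosa cells with no filter, and 1.06% and 0.194% in the fit of all 42. Under upper-quartile scaling the lower Gadd45a level in vehicle PGCLCs than in Sertoli cells turned to 0.0065 (log2). Leaving out 1 library at a time gave 1 to 2 members in iPSCs at 1 µM, 2 to 4 at 50 µM and 2 to 4 at 100 µM, 0 to 2 in Sertoli cells, 1 to 1 in granulosa cells, 4 to 5 in PGCLCs, 0 to 0 between doses, 9 to 10 in the vehicle comparisons, and 3 to 4, 2 to 2 and 1 to 2 for the responses of PGCLCs, Sertoli cells and granulosa cells against iPSCs.

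Replicate numbers did not pair the samples, since in no comparison did all 3 same-numbered pairs have deviations correlated over 0.1; in Sertoli cells each sample correlated best with its own number, at 0.04 to 0.07. With the replicate number as a block, 2 members passed in Sertoli cells (Ccnd1 and Ccnd2) instead of 1, 1 for 100 against 1 µM in iPSCs (Plk2) instead of 0, 5 in PGCLCs instead of 6 and 4 in iPSCs at 50 µM instead of 3.

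The depth limits Gadd45g in iPSCs most, with as few as 39 reads in a library.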
